A study of Homo sapiens with 11 samples.

Results

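The genes described here belong to 3 systems by which neighboring cells signal on contact or at short range: ephrins with their Eph receptors, Notch with its ligands and targets, and semaphorins with plexins and neuropilins. They were chosen by the start of the gene symbol (EFNA, EFNB, EPHA, EPHB, JAG, DLL, NOTCH, HES, HEY, SEMA, PLXN and NRP), whatever their values. The array carried 66 such genes out of 14941, on 80 of 22464 probes, and 3 further probes that list a member together with other genes were not used. RT4, a line established from a human bladder papilloma, was grown either on Matrigel, a basement membrane extract of a mouse tumor that serves as cancer-remodeled extracellular matrix (crECM), or on culture plastic. The Matrigel group held 9 one-color arrays, 1 for each of 12 h and days 1, 2, 3, 4, 6, 7, 8 and 9 of culture, and the plastic group held 2 replicate arrays. All cells were of the same unmodified line, and the Matrigel cells had been grown on plastic before. Nothing states that arrays of a group came from separate cultures, so the p-values measure only the spread between these arrays.

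Ephrins are membrane-bound ligands. They are read by Eph receptor tyrosine kinases on the adjacent cell, mostly to repel or sort cells. A Notch receptor bound by a Jagged or Delta ligand on a neighbor is cut, and its inner part joins the DNA-binding protein RBPJ to switch on HES and HEY repressors, which in epithelia often act on the choice between cell fates. Semaphorins, some secreted and some anchored in the membrane, act through plexins, with neuropilins as co-receptors for the secreted class, and steer axons, vessels and epithelial cells.

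Levels are given in noise SDs, the authors' unit: the distance of a spot from the zero point divided by the SD of the noise peak, after adjustment of the arrays to each other. A probe counts as expressed above 3 SD of the deposited values, and levels of different probes are not compared. In these values 83.9% to 86.6% of probes exceeded 3 SD on the Matrigel arrays, and 86.4% and 85.2% on plastic. In noise SDs taken from the raw intensities, the shares were 75.9% to 85.4% on Matrigel, against 53.2% and 44.5% on plastic. A deposited level above 3 SD on plastic therefore need not mean a signal above the raw noise. The raw median intensity was between 224 and 482 on the Matrigel arrays, against 162 and 140.45 on plastic. The slope of the deposited on the raw values was between 0.931 and 1.19 on the log10 scale on Matrigel, against 0.690 and 0.661 on plastic. Substrate and array handling cannot be told apart. Of 13 urothelial marker genes, 10 were above 3 SD on all 11 arrays, but so were 6 of 8 fibroblast, 4 of 6 endothelial, 6 of 6 leukocyte and 4 of 5 neuronal markers and 43 of 59 smell and taste receptor genes. The summed level of the smell and taste receptors was between 1097 and 1293 SD on Matrigel, against 1558 and 1608 SD on plastic, and 30 of the 58 tested were lower on Matrigel and 2 higher. Their part in the results below was not tested.

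Of the 66 genes, 63 passed the filter (above 3 SD on at least 2 arrays) and were tested, 45 were above 3 SD on every array, and SEMA3A, SEMA3G and PLXNB3 stayed under 3 SD on all 11. On Matrigel, 16 genes were higher and 16 lower than on plastic at an adjusted p under 0.05 in the limma fit across the whole array, while 31 were not called. Over all 14517 genes tested, 24.2% were higher and 20.1% lower, so the number of calls was close to that of the array as a whole. The median log2 change was 0.056 over the tested members and 0.087 over all genes. All 9 Matrigel arrays lay above both plastic arrays in 10 members and below both in 16, against 22.3% and 22.1% of all genes. The calls leaned on the pair of plastic arrays: without plastic replicate 1 there were 5 higher and 6 lower, and without plastic replicate 2 there were 7 and 5. The calls of EFNA3, HES4 and SEMA3B as higher and of EFNB1, EPHA3, NOTCH1, PLXNC1 and SEMA6D as lower were made in both of these fits, and every other call was lost in at least 1 of them. Another probe of NOTCH1 and of PLXNC1 was called in the opposite direction, and the mean of the SEMA6D probes gave no call. HES4 was set to 3 SD on both plastic arrays, so leaving out either one could not change its log2 change of 2.09. The heatmap of levels by array shows most rows at a similar level on both substrates and a small set with an abrupt difference.

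**Figure D1:**
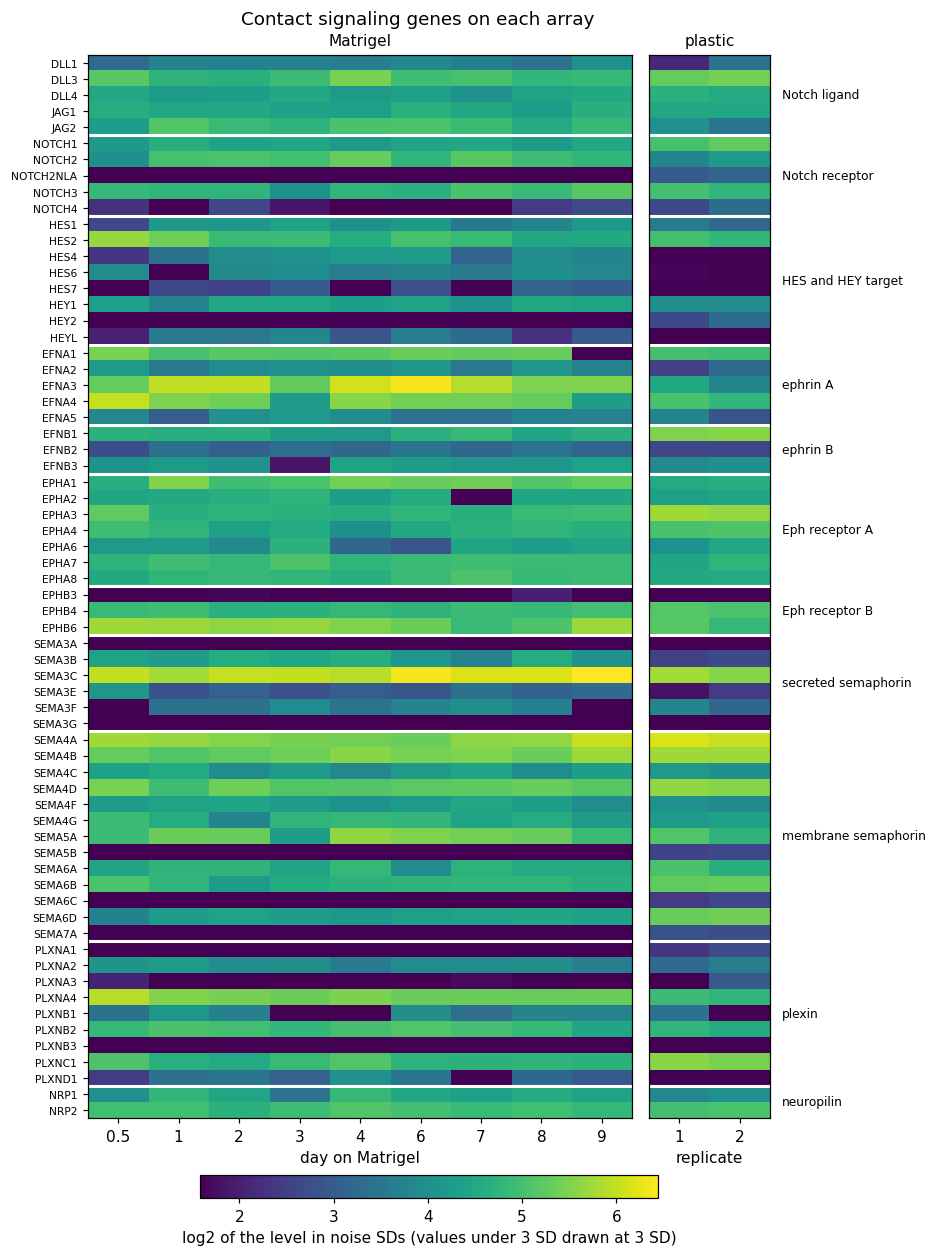
Log2 of the level in noise SDs of the 66 genes on the 9 Matrigel arrays (left, by day) and the 2 plastic arrays (right, by replicate), in rows ordered by role, with values under 3 SD drawn at 3 SD. HES4, HEYL and PLXND1 are at the lowest color on plastic only, HEY2, NOTCH2NLA, PLXNA1, SEMA5B, SEMA6C and SEMA7A on Matrigel only, and SEMA3A, SEMA3G and PLXNB3 on all arrays.

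Among the 5 Notch ligands, JAG2 and DLL1 were higher on Matrigel, and JAG1, DLL3 and DLL4 were not called. In these bulk RNA samples, fewer cells with a transcript and less of it per cell cannot be told apart. JAG2, a Jagged ligand, had levels of 19.8, 34.8, 28.8, 26.5, 33.1, 33.4, 29.6, 23.4 and 28.6 SD on Matrigel from 12 h to day 9, against 16.4 and 11.1 SD on plastic. All Matrigel arrays lay above both plastic arrays, a 2.1-fold rise (log2 change 1.07, SE 0.21, adjusted p = 0.0017, limma). DLL1, a Delta ligand, was between 9.71 and 16.5 SD on Matrigel with a median of 13.0 SD, against 4.36 and 10.8 SD on plastic. Its groups overlapped, with 7 of 9 Matrigel arrays above both plastic ones (log2 change 0.89, SE 0.30, adjusted p = 0.029, limma). The change of DLL1 was 0.24 without plastic replicate 1 (adjusted p = 0.60, limma), 1.55 without plastic replicate 2 (adjusted p = 0.0064, limma) and 0.25 with quantile-normalized values (adjusted p = 0.49, limma). JAG1, the other Jagged ligand, lay between 19.0 and 25.2 SD on Matrigel, around the 22.3 and 22.5 SD on plastic, with a log2 change of -0.0031 and an SE of 0.13. DLL4 was lower than both plastic values on all 9 Matrigel arrays without reaching the threshold (log2 change -0.29, SE 0.14, adjusted p = 0.13, limma), and DLL3 had a log2 change of -0.40 (adjusted p = 0.082, limma). With values rebuilt from the raw intensities DLL4 stood at 0.31.

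Of the 5 genes with a Notch receptor symbol, NOTCH2 was higher on Matrigel, NOTCH1, NOTCH4 and NOTCH2NLA were lower by the probe used for each, and NOTCH3 was not called. NOTCH2 had a lowest level of 16.3, a median of 31.1 and a highest of 39.4 SD on Matrigel, against 13.7 and 18.3 SD on plastic. The 12 h array was the single Matrigel array within the plastic range, and the other 8 were above it (log2 change 0.91, SE 0.26, adjusted p = 0.015, limma). The change of NOTCH2 was 1.91 with rebuilt values and 0.61 with quantile-normalized values, where it missed the threshold (adjusted p = 0.056, limma).

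NOTCH1 had opposite calls on its 2 probes. On the brighter probe, used for the counts, levels were between 18.1 and 24.8 SD on Matrigel, against 32.5 and 38.6 SD on plastic (log2 change -0.76, SE 0.14, adjusted p = 9e-04, limma). On the other probe they were between 9.53 and 30.4 SD on Matrigel, against 4.66 and 2.17 SD on plastic (log2 change 2.15, SE 0.35, adjusted p = 4.9e-04, limma). The groups did not overlap on either probe, and the mean of both gave a log2 change of 0.69, so no direction is given for NOTCH1. NOTCH3 was between 16.7 and 36.6 SD on Matrigel, against 31.6 and 27.4 SD on plastic (log2 change -0.11, SE 0.22). NOTCH4 was under 3 SD on 4 Matrigel arrays and reached 6.503 SD on the highest, against 6.42 and 9.79 SD on plastic. In the deposited values it was at least 1.95-fold lower (adjusted p = 0.037, limma). With rebuilt values NOTCH4 had a log2 change of 0.039. NOTCH2NLA arose by partial duplication of NOTCH2 and shares sequence with it, so its probe may also read NOTCH2, and its level is discussed with the other dim genes below.

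The HES and HEY genes code for repressors that Notch switches on in many tissues, although HES6 is known to oppose HES1 and several of them also answer to other signals. HES4, HES6 and HEYL were higher on Matrigel, HEY2 was lower, and HES1, HES2, HES7 and HEY1 were not called. HES4 had levels of 5.12, 10.6, 15.7, 16.7, 18.3, 18.5, 8.65, 15.2 and 14.0 SD on Matrigel from 12 h to day 9 and was under 3 SD on both plastic arrays. In the deposited values this is at least 4.25-fold (log2 change 2.09, SE 0.43, adjusted p = 0.0021, limma), and none of the arrays overlapped. The log2 change of HES4 was smaller at 1.05 with rebuilt values and 0.89 with quantile-normalized values, and was called in both. HEYL was between 4.06 and 13.9 SD on Matrigel, with a median of 9.88 SD, and under 3 SD on both plastic arrays, at least 2.86-fold higher in the deposited values (log2 change 1.52, SE 0.42, adjusted p = 0.013, limma). The call of HEYL was lost with rebuilt values (log2 change 0.61, adjusted p = 0.087, limma), with quantile-normalized values (0.44, adjusted p = 0.23, limma), with levels raised to a floor of 5 SD (adjusted p = 0.096, limma) and without plastic replicate 1 or 2 (adjusted p = 0.091 and 0.10, limma). HES6 was between 11.6 and 16.3 SD on 8 Matrigel arrays and at 2.77 SD on day 1, against 3.18 SD and a value under 3 SD on plastic, at least 3.87-fold higher in the deposited values (log2 change 1.95, SE 0.52, adjusted p = 0.01, limma). HES6 had a log2 change of 1.02 with rebuilt and 0.87 with quantile-normalized values, called in both, and missed the threshold without plastic replicate 1 or 2 (adjusted p = 0.067 and 0.090, limma). HES4 and HES6 were the members of the off-on class, defined by a geometric mean under 1 SD on plastic and over 10 SD on Matrigel, which held 3.96% of all genes. No member was in the opposite class, which held 0.335% of all genes.

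The other 4 varied less or overlapped. HES1, the best known direct Notch target, lay between 6.27 and 21.2 SD on Matrigel with a median of 17.4 SD, against 11.8 and 9.64 SD on plastic (log2 change 0.48, SE 0.38, adjusted p = 0.32, limma). With rebuilt values its change was 1.22 (adjusted p = 0.007, limma), and with quantile-normalized values it was -0.057. Without the 12 h array, its lowest, HES1 was called higher (log2 change 0.64, SE 0.22, adjusted p = 0.035, limma). HEY1 was above both plastic arrays on 8 of 9 Matrigel arrays, with a range of 13.7 to 23.04 SD, against 15.5 and 15.6 SD on plastic (log2 change 0.34, SE 0.19, adjusted p = 0.17, limma). HES7 was above 3 SD on 6 Matrigel arrays and on no plastic array (log2 change 0.84, SE 0.44, adjusted p = 0.14, limma). HES2 had a log2 change of 0.034 and an SE of 0.27. With rebuilt values all 7 HES and HEY genes tested had a change above 0 and 4 were called higher, with a median of 1.02 against 0.52 over all genes, whereas quantile-normalized values put 6 of 8 above 0, with a median of 0.056 against 0.036. Rebuilt values without the regression step put all 7 above 0, but their median of 1.14 was below the 1.26 over all genes, a median that 3 of the 7 exceeded.

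The bases upstream of these genes are shown because Notch acts on these genes through a shared DNA-binding partner. RBPJ is known to bind a short motif of the form GTGGGAA, whose reverse complement is TTCCCAC. Within 250 bases upstream of the gene start in the RefSeq annotation of GRCh38.p14, this motif was found on either strand for 4 of the 7 HES and HEY genes with a window, and for 6.69% of all 27305 genes with a window (5.43% of 35116 windows, since a gene can have several). A further search over the 58 members with a window found it in no gene outside that group. The capitals mark the motif, and each line runs 5′ to 3′ in the direction of the gene.
HES1, chr3:194136018-194136114, plus strand: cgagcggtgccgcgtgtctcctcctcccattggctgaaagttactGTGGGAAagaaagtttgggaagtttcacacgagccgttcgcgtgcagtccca
HES4, chr1:1000123-1000219, minus strand: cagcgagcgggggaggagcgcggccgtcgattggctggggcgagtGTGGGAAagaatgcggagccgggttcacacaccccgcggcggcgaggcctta
HEYL, chr1:39639770-39639866, minus strand: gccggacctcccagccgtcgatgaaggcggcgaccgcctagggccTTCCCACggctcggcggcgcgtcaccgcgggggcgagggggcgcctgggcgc
HEY2, chr6:125749382-125749478, plus strand: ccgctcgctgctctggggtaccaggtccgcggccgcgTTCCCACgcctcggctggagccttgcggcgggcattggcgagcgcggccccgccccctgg
The motif of HES1 lies 85 bases and that of HES4 77 bases before the gene start, on the strand of the gene, and both sit in the same run of 12 bases, tGTGGGAAagaa. In HEYL and HEY2 it lies on the opposite strand, 178 and 213 bases before the start. Of the 4 genes, HES4 and HEYL were higher on Matrigel, HES1 was not called and HEY2 was lower, and binding of RBPJ was not measured.

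The Matrigel time course of HES1, HES4 and NOTCH2 was uneven at its start. Compared with the 8 later Matrigel arrays, the 12 h array was lower in NOTCH2 and HES1 and higher in PLXNA4 at an adjusted p under 0.05, 3 of 57 members tested, against 4.32% of all 13760 genes tested (2.11% higher and 2.2% lower). The lone 12 h array was assumed to vary like the later ones. HES1 was at 6.27 SD at 12 h, against 11.7 to 21.2 SD from day 1 to day 9, a 2.65-fold difference (log2 difference -1.41, SE 0.31, adjusted p = 0.034, limma). The 12 h level of HES1 was also below both plastic arrays. Its call was lost with quantile-normalized values (adjusted p = 0.066, limma) and without the day 1, 2, 6 or 9 array (adjusted p = 0.0531, 0.0633, 0.0522 and 0.0504, limma), with a log2 difference between -1.48 and -1.02 under all alternatives run. NOTCH2 was at 16.3 SD at 12 h, against 27.3 to 39.4 SD later (log2 difference -0.97, SE 0.19, adjusted p = 0.022, limma), and this call held under every alternative run. HES4 had a difference of similar size to that of HES1, -1.48 with an SE of 0.40, that missed the threshold (adjusted p = 0.073, limma) and passed it without the day 7 array (adjusted p = 0.027, limma). HEYL was lowest at 12 h as well, at 4.06 SD against 4.85 to 13.9 SD later, a difference of -1.22 (adjusted p = 0.23, limma). The log2 difference of JAG2 was -0.58 (adjusted p = 0.15, limma).

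The 2 lowest Matrigel levels of HES1 and of HES4 were both on the 12 h and day 7 arrays, which had the lowest raw medians of the Matrigel arrays, 224 and 250. For NOTCH2 the day 7 level, 36.3 SD, was among the higher ones. The part of the raw brightness in these differences was not tested. No member changed steadily with the logarithm of the day (0 of 57 tested, against 0.00727% of all genes, limma), and at an unadjusted p under 0.05 the members were HES2, PLXNA4, SEMA3C, SEMA4B and EPHB6.

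**Figure D2:**
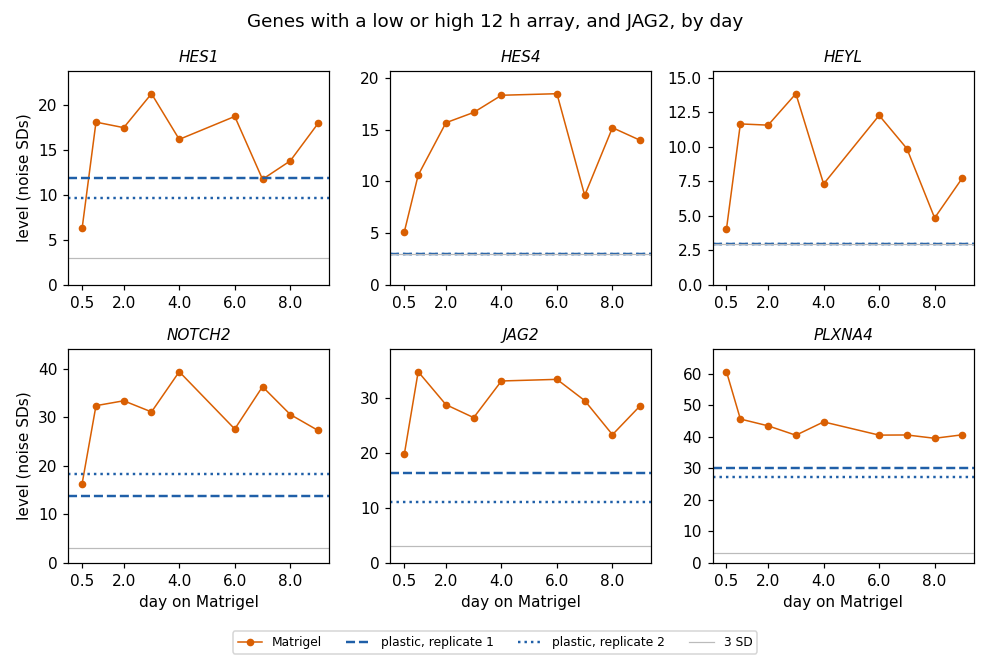
Level in noise SDs (vertical axis, from 0) of HES1, HES4, HEYL, NOTCH2, JAG2 and PLXNA4 by day on Matrigel (orange points, 1 array each), with the 2 plastic arrays as dashed and dotted blue lines and 3 SD as a gray line, below which values are drawn at 3 SD. HES1, HES4, HEYL, NOTCH2 and JAG2 have their lowest Matrigel value at 12 h, and PLXNA4 has its highest, 60.6 SD.

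The proteins that process Notch or work with it were mixed in direction. Of 37 such genes on the array 36 were tested, with 9 higher and 5 lower on Matrigel, against 24.2% and 20.1% of all genes tested, and with a median log2 change of 0.38, against 0.087 over all genes. The 14 calls were thus no larger a share than on the array as a whole, where 44.3% were called. RBPJ, the DNA-binding partner of cleaved Notch, was between 11.7 and 24.2 SD on Matrigel, against 39.2 and 39.9 SD on plastic (log2 change -1.17, SE 0.23, adjusted p = 0.0017, limma). SPEN, a corepressor that binds RBPJ, was also lower, with 17.1 to 24.5 SD on Matrigel, against 35.7 and 37.5 SD on plastic (log2 change -0.75, SE 0.14, adjusted p = 0.0015, limma). RFNG, a Fringe enzyme that adds sugar to Notch and tunes its response to ligands, was at 9.47 to 18.8 SD on Matrigel, against 4.06 and 5.51 SD on plastic (log2 change 1.73, SE 0.25, adjusted p = 2.3e-04, limma). KAT2B, a histone acetyltransferase that works with the Notch complex, was above 3 SD on all 9 Matrigel arrays and on neither plastic array, at least 4.49-fold higher (adjusted p = 0.0025, limma). All 4 kept their direction and call with rebuilt and with quantile-normalized values, where KAT2B had smaller log2 changes of 1.13 and 0.94, against 2.17 in the deposited values, and RFNG had 1.27 and 1.01, whereas the rebuilt values without the regression step gave RBPJ 0.092 and SPEN 0.52.

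Ephrins of the A class, which are held to the membrane by a lipid anchor, were called in 2 of 5 genes, both higher on Matrigel. EFNA3 had levels of 38.9, 62.4, 63.9, 38.4, 68.3, 82.5, 59.8, 44.95 and 45.2 SD on Matrigel from 12 h to day 9, against 22.1 and 13.8 SD on plastic. Every Matrigel array was above both plastic arrays, by 3.1-fold in the mean (log2 change 1.63, SE 0.28, adjusted p = 7.6e-04, limma). EFNA2 was between 11.5 and 18.7 SD on Matrigel with a median of 16.0 SD, against 5.804 and 9.696 SD on plastic, a 2.02-fold rise without overlap (log2 change 1.01, SE 0.24, adjusted p = 0.0059, limma). EFNA2 was not called with quantile-normalized values (log2 change 0.33) or without plastic replicate 1 (0.64, adjusted p = 0.15, limma).

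EFNA3 lies on chromosome 1 directly between EFNA4 and EFNA1, and neither neighbor was called. EFNA4 ranged from 18.9 to 64.4 SD on Matrigel, against 33.1 and 27.8 SD on plastic (log2 change 0.31, SE 0.39). EFNA1 was between 32.3 and 44.0 SD on 8 Matrigel arrays, all above both plastic values of 32.2 and 30.3 SD, and on day 9 its spot had a negative raw intensity, -576, and a level under 3 SD. The log2 change of EFNA1 was -0.13 with an SE of 0.81, and 0.27 without the day 9 array (adjusted p = 0.059, limma). EFNA5 had a log2 change of 0.39 and an SE of 0.32.

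Of the 3 transmembrane ephrins of the B class, EFNB2 was higher on Matrigel, EFNB1 was lower and EFNB3 was not called. EFNB1 was at 25.6, 24.4, 24.8, 19.7, 18.1, 25.8, 28.7, 21.6 and 24.6 SD on Matrigel from 12 h to day 9, against 45.3 and 47.6 SD on plastic. Its groups did not overlap, with a fall of 0.98 on the log2 scale (SE 0.15, adjusted p = 3.5e-04, limma). EFNB2 was between 6.76 and 11.2 SD on Matrigel, against 6.16 and 6.22 SD on plastic (log2 change 0.60, SE 0.19, adjusted p = 0.024, limma), with no overlap and with a change of -0.028 in quantile-normalized values. EFNB3 had 17.8 SD as its Matrigel median, a single low value of 3.57 SD on day 3, and 14.5 and 16.2 SD on plastic (log2 change 0.0097, SE 0.55).

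Among 7 receptors of the EphA class, EPHA1 and EPHA7 were higher on Matrigel, EPHA3 was lower and 4 were not called. EPHA3 lay between 24.5 and 38.0 SD on Matrigel, against 53.6 and 50.1 SD on plastic, with a fall of 0.90 on the log2 scale (SE 0.15, adjusted p = 5e-04, limma) and no overlap. EPHA1 was at 25.1 SD at 12 h and between 30.9 and 45.5 SD afterwards, against 23.5 and 25.1 SD on plastic (log2 change 0.58, SE 0.19, adjusted p = 0.024, limma). Only the 12 h level of EPHA1 fell within the plastic range. EPHA7 differed little in size, with a Matrigel median of 29.8 SD, against 21.7 and 26.9 SD on plastic (log2 change 0.29, SE 0.10, adjusted p = 0.039, limma). EPHA2, a receptor prominent in epithelial cells that binds ephrin A ligands, was between 19.5 and 26.6 SD on 8 Matrigel arrays and at 2.81 SD on day 7, against 20.3 and 21.8 SD on plastic. Its log2 change was -0.21 with an SE of 0.66, and 0.12 without the day 7 array. EPHA4 was below both plastic values on all 9 Matrigel arrays by the probe used (log2 change -0.49, SE 0.19, adjusted p = 0.057, limma), while its other probe gave 0.60 (adjusted p = 0.23, limma). EPHA6 and EPHA8 had log2 changes of -0.24 and 0.26.

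Of the 3 EphB receptors, EPHB4 alone was called, between 25.4 and 31.7 SD on Matrigel, against 35.7 and 33.2 SD on plastic (log2 change -0.28, SE 0.10, adjusted p = 0.034, limma). This small difference was -0.050 with rebuilt values and did not pass with quantile-normalized values (adjusted p = 0.17, limma). EPHB6, which lacks kinase activity, had a median of 48.0 SD on Matrigel, against 36.1 and 28.3 SD on plastic (log2 change 0.47, SE 0.22, adjusted p = 0.099, limma). EPHB3 was above 3 SD on the day 2 and day 8 arrays only.

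**Figure D3:**
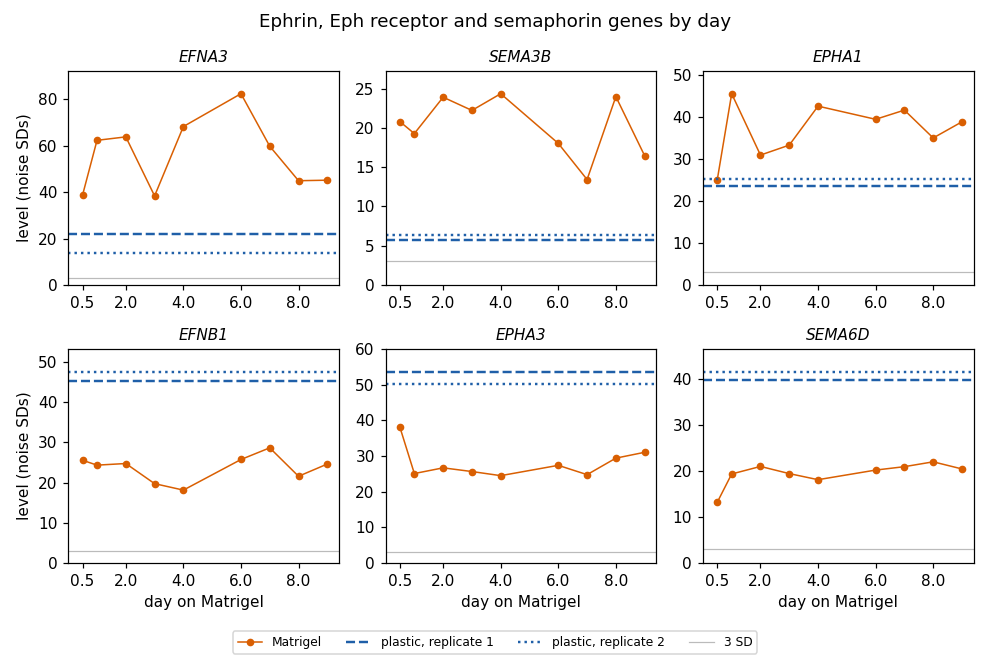
Level in noise SDs (vertical axis, from 0) of EFNA3, SEMA3B, EPHA1, EFNB1, EPHA3 and SEMA6D by day on Matrigel (orange points, 1 array each), with the 2 plastic arrays as dashed and dotted blue lines and 3 SD as a gray line. EFNA3 and SEMA3B lie above both plastic lines at each time, EFNB1, EPHA3 and SEMA6D lie below both, and EPHA1 reaches the plastic level at 12 h.

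The secreted semaphorins, all of class 3, were called higher on Matrigel in 3 of the 4 genes tested, and the membrane-anchored ones were called lower in 7 of 13 and higher in none, where 24.2% of all genes tested were higher and 20.1% lower. Of the 4 secreted ones, 1 was called higher with rebuilt values and 2 with quantile-normalized values. SEMA3B had levels of 20.8, 19.3, 23.9, 22.3, 24.4, 18.0, 13.4, 24.0 and 16.5 SD on Matrigel from 12 h to day 9, against 5.77 and 6.402 SD on plastic. The lowest Matrigel array was above both plastic ones, a 3.28-fold rise in the deposited values (log2 change 1.71, SE 0.23, adjusted p = 1.1e-04, limma). With rebuilt values the log2 change of SEMA3B was 1.59, and with quantile-normalized values it was 1.01. Its plastic levels lie among those of dim genes, described below, whose raw plastic intensities were within the noise. SEMA3E was at 17.8 SD at 12 h and between 6.82 and 10.7 SD later, against 3.54 and 5.35 SD on plastic (log2 change 1.05, SE 0.32, adjusted p = 0.02, limma), and it was not called with quantile-normalized (0.32) or rebuilt (0.58, adjusted p = 0.056, limma) values. Its neighbor on chromosome 7, SEMA3A, the best studied repellent of the class, was under 3 SD on all arrays. SEMA3C was between 54.4 and 86.5 SD on Matrigel, against 54.5 and 47.0 SD on plastic (log2 change 0.43, SE 0.15, adjusted p = 0.038, limma), and with rebuilt values it stood at 0.22 and was not called (adjusted p = 0.21, limma). SEMA3F was at 3.07 SD at 12 h, between 10.5 and 15.7 SD from day 1 to day 8 and under 3 SD on day 9, against 14.0 and 9.15 SD on plastic, with a log2 change of -0.30 and an SE of 0.64.

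SEMA6D led the well-expressed membrane semaphorins, with 13.2 to 22.0 SD and a median of 20.2 SD on Matrigel, against 39.8 and 41.6 SD on plastic. The groups did not overlap, and the fall was 1.08 on the log2 scale (SE 0.17, adjusted p = 3.5e-04, limma). Its other probe had 3.92 to 29.4 SD on Matrigel, against 13.2 and 8.65 SD on plastic, and was not called (log2 change 0.43, SE 0.57). The mean of both probes lost the call (log2 change -0.32, adjusted p = 0.37, limma). SEMA6B was between 19.0 and 33.2 SD on Matrigel, against 38.1 and 39.5 SD on plastic (log2 change -0.58, SE 0.15, adjusted p = 0.0099, limma). SEMA4A was below both plastic arrays on 8 of 9 Matrigel arrays, with a median of 48.5 SD, against 71.9 and 65.2 SD on plastic (log2 change -0.50, SE 0.15, adjusted p = 0.02, limma). SEMA4D, a ligand of plexin B1, lay between 30.3 and 44.0 SD on Matrigel, against 49.5 and 46.3 SD on plastic (log2 change -0.37, SE 0.11, adjusted p = 0.022, limma). The other 3 lower calls, SEMA5B, SEMA6C and SEMA7A, were dim genes and are taken up below. SEMA4B, SEMA4C, SEMA4F, SEMA4G, SEMA5A and SEMA6A were not called by the probe used for each, with log2 changes from -0.33 to 0.30. The second SEMA6A probe was called lower, at 13.35 to 26.3 SD on Matrigel, against 34.2 and 33.1 SD on plastic (log2 change -0.64, adjusted p = 0.022, limma). It was also lower at 12 h than later (log2 difference -0.78, adjusted p = 0.033, limma). The second SEMA5A probe had a log2 change of -1.26 (adjusted p = 0.14, limma), and that of SEMA4A was under 3 SD on all arrays. The absence of higher calls did not hold in every set of values: rebuilt values gave 3 higher and 5 lower of 10 tested, and quantile-normalized values gave 0 and 6 of 13. Rebuilt values without the regression step gave 8 higher and 0 lower of 10, and 4 higher of the 4 secreted ones. The median log2 change of all genes was then 1.26, against 0.52 with rebuilt values. The share of all genes called in these other sets of values is not given, so the semaphorin counts in them are not set against it.

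Of the plexins, the receptors of semaphorins, PLXNA4 and PLXND1 were higher on Matrigel, PLXNC1 and PLXNA1 were lower and 4 tested genes were not called. PLXNA4 was at 60.6 SD at 12 h and between 39.5 and 45.6 SD later, against 29.97 and 27.1 SD on plastic (log2 change 0.62, SE 0.14, adjusted p = 0.0037, limma). Its 12 h level was 1.45-fold above the later ones (log2 difference 0.53, SE 0.11, adjusted p = 0.023, limma), a call lost with quantile-normalized values (adjusted p = 0.095, limma) and without a trend in the variance prior (adjusted p = 0.051, limma). With rebuilt values without the regression step this 12 h difference was 0.019 (adjusted p = 0.93, limma). The 4 probes of PLXNA4 differed, and their mean gave no call between the substrates (log2 change 0.12, adjusted p = 0.50, limma). The second brightest rose on Matrigel as well (log2 change 1.06, adjusted p = 6.6e-05, limma), the third had a log2 change of -0.10, and the fourth, under 3 SD on all Matrigel arrays, against 6.21 and 6.51 SD on plastic, was called lower (adjusted p = 4.6e-09, limma). At 12 h the third probe was higher than later (log2 difference 1.48, adjusted p = 0.02, limma) and the second brightest stood at -0.47 (adjusted p = 0.06, limma). PLXND1, which binds SEMA3E, was between 3.05 and 16.4 SD on Matrigel and under 3 SD on both plastic arrays. In the deposited values it was at least 2.81-fold higher (adjusted p = 0.024, limma). The call was lost with rebuilt (log2 change 0.61, adjusted p = 0.094, limma) and quantile-normalized (0.39, adjusted p = 0.27, limma) values.

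PLXNC1, the receptor of SEMA7A, had opposite calls on its 2 probes. On the brighter one it was between 23.5 and 34.7 SD on Matrigel, against 47.3 and 44.3 SD on plastic (log2 change -0.72, SE 0.14, adjusted p = 0.0015, limma), and on the other between 15.3 and 25.5 SD on Matrigel, against 8.15 and 11.5 SD on plastic (log2 change 1.11, SE 0.21, adjusted p = 0.0011, limma). PLXNB1 was under 3 SD on the day 3 and day 4 arrays and on plastic replicate 2 (log2 change 0.76, SE 0.72), and PLXNB2 had a log2 change of 0.21 and an SE of 0.15. PLXNA2 and PLXNA3 had 0.47 and -0.61 (adjusted p = 0.065 and 0.066, limma). The second probe of PLXNA2 was called higher, at 2.19 on the log2 scale (adjusted p = 1.5e-05, limma). Neither neuropilin was called: NRP1 had a Matrigel median of 21.8 SD, against 14.3 and 16.2 SD on plastic (log2 change 0.44, SE 0.30, adjusted p = 0.25, limma), and NRP2 had 31.1 SD, against 31.9 and 33.3 SD on plastic (log2 change -0.10, SE 0.10). A second NRP2 probe was lower on Matrigel (log2 change -0.86, adjusted p = 2.1e-04, limma). NRP1 reached 1.56 with rebuilt values (adjusted p = 2.7e-04, limma).

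**Figure D4:**
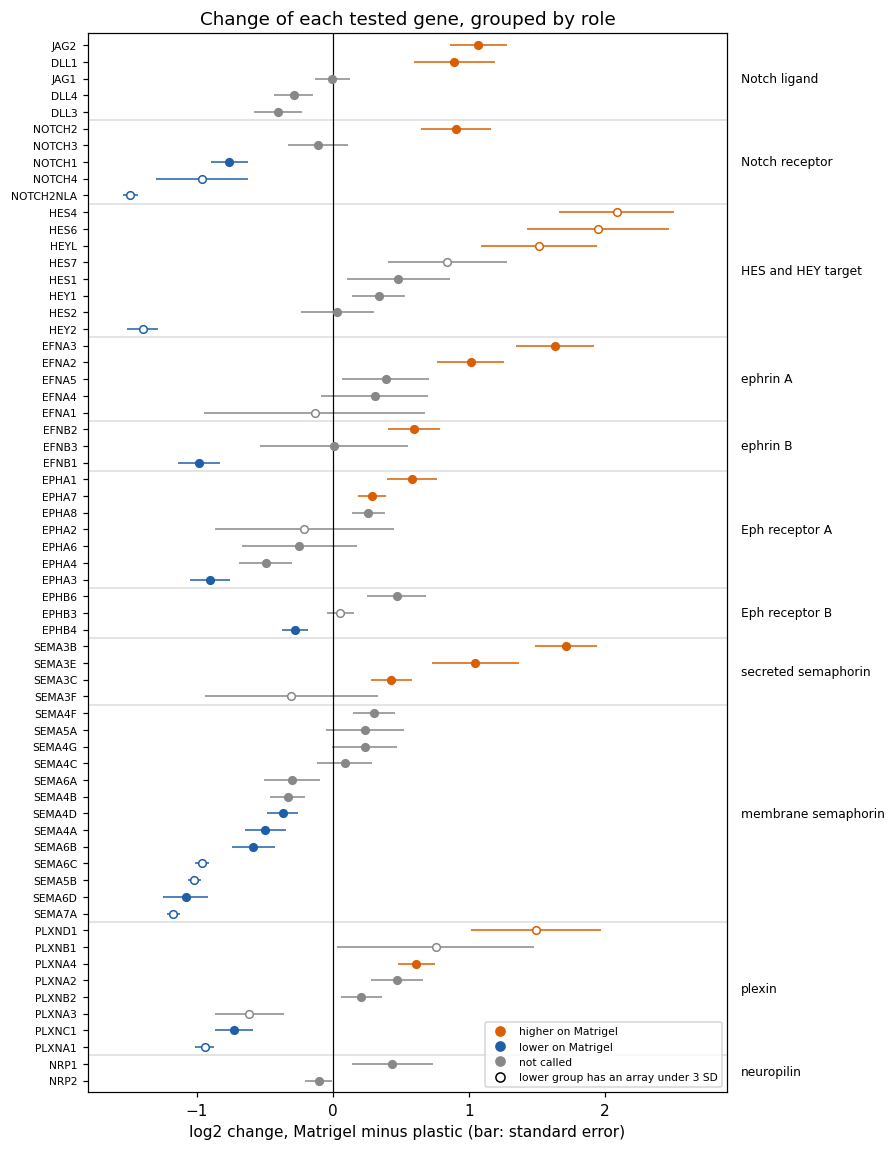
Log2 change, Matrigel minus plastic, of the 63 tested genes (points) with its standard error (bars), sorted within each role, in orange for the 16 higher, blue for the 16 lower and gray for the 31 not called. Hollow points mark genes with an array under 3 SD in the lower group, among them HES4, HES6 and HEYL at the right and NOTCH2NLA and HEY2 at the left. Their change in the deposited values is a lower bound in size unless the higher group also has such arrays, as for EPHB3 and PLXNA3.

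Of 44 genes listed as effectors or partners of Eph receptors, plexins and semaphorins, 41 were tested, with 11 higher and 8 lower on Matrigel. Their median log2 change was 0.21, against 0.087 over all genes. The list also holds cell-surface proteins, among them CD72. The 19 calls were close to the 44.3% called over all genes (24.2% higher and 20.1% lower). DPYSL5, a member of the collapsin response mediator family, was between 9.39 and 19.7 SD on Matrigel and under 3 SD on both plastic arrays, at least 4.58-fold higher in the deposited values (log2 change 2.20, adjusted p = 2.1e-05, limma), with log2 changes of 1.121 in rebuilt and 0.93 in quantile-normalized values. Its relative DPYSL4 was between 24.5 and 204 SD on Matrigel, against 10.8 and 12.0 SD on plastic (log2 change 1.89, SE 0.61, adjusted p = 0.026, limma), a call lost without either plastic replicate (adjusted p = 0.13 and 0.12, limma), and was higher at 12 h than later (log2 difference 2.56, adjusted p = 0.0029, limma). CD72, a receptor of SEMA4D on B cells, was at 14.5 to 33.8 SD on Matrigel, against 57.8 and 72.1 SD on plastic (log2 change -1.35, SE 0.27, adjusted p = 0.0018, limma). NCK1, an adaptor that links Eph receptors to the cytoskeleton, was under 3 SD on all Matrigel arrays, against 5.24 and 8.62 SD on plastic, at least 2.24-fold lower in the deposited values (adjusted p = 2.2e-05, limma). It is a dim gene of the kind described next, and with rebuilt values it did not pass the filter.

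Of the 16 lower calls, 6 rested on probes that were under 3 SD on all 9 Matrigel arrays: HEY2, NOTCH2NLA, PLXNA1, SEMA5B, SEMA6C and SEMA7A. Of all lower calls on the array, 20.4% were of this kind. The deposited plastic levels of these 6 genes lay between 5.10 and 9.83 SD, but their raw intensities were between 19.99 and 99.7 on Matrigel, against 24.1 and 47 on plastic, where the noise peak itself had its mode at 28.8 and 29 and an SD of 39.5 and 45.8. For SEMA5B, the raw intensities ran from 45.7 to 85.6 on Matrigel, against 28.6 and 25.2 on plastic, the opposite order to the deposited levels. When noise SDs were rebuilt from the raw intensities, none of the 6 exceeded 0.393 SD on plastic or 1.38 SD on Matrigel. These 6 calls are therefore given as differences in the deposited values between probes that were not above the noise of the raw data. The standard errors of such genes are small because levels under 3 SD were raised to that floor, and without 1 of the plastic arrays they no longer passed the filter. Some genes called higher had similar plastic levels: those of SEMA3B, EFNB2 and EFNA2 lay between 5.10 and 9.83 SD, and those of SEMA3E and of RFNG lay partly below. DLL1 was at 4.36 SD on plastic replicate 1. The second probes of NOTCH1 and PLXNA2, both called higher, were below 5.10 SD on both plastic arrays. Their folds are differences in the deposited values and may rest on plastic signals within the raw noise.

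Rebuilding the values from the raw intensities moved the whole array toward Matrigel, with a median log2 change of 0.52 over all genes, and of 0.63 over the 55 members that could be tested, against 0.087 and 0.056 in the deposited values. In the plot of both sets of changes most members lie above the line of equal change. Against that median of 0.52, 15 of the 16 genes called higher lay above it and SEMA3C below it, while all 10 of the tested genes called lower lay below it, and 12 of these 16 and 8 of these 10 were called the same way again. NOTCH4 changed sign. All these sets of values come from the same arrays, so agreement between them is not an independent check. The share of all genes called the same way again is not given. The numbers of calls made again are therefore not read as particular to these genes. Both with rebuilt and with quantile-normalized values, 7 of the higher and 7 of the lower calls were made again. The higher ones were EFNA3, EPHA1, HES4, HES6, JAG2, PLXNA4 and SEMA3B, and the lower ones were EFNB1, EPHA3, NOTCH1, PLXNC1, SEMA4A, SEMA6B and SEMA6D, with other probes of NOTCH1, PLXNC1 and PLXNA4 called in the opposite direction and with no call for PLXNA4 or SEMA6D from the mean of a gene's probes.

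**Figure D5:**
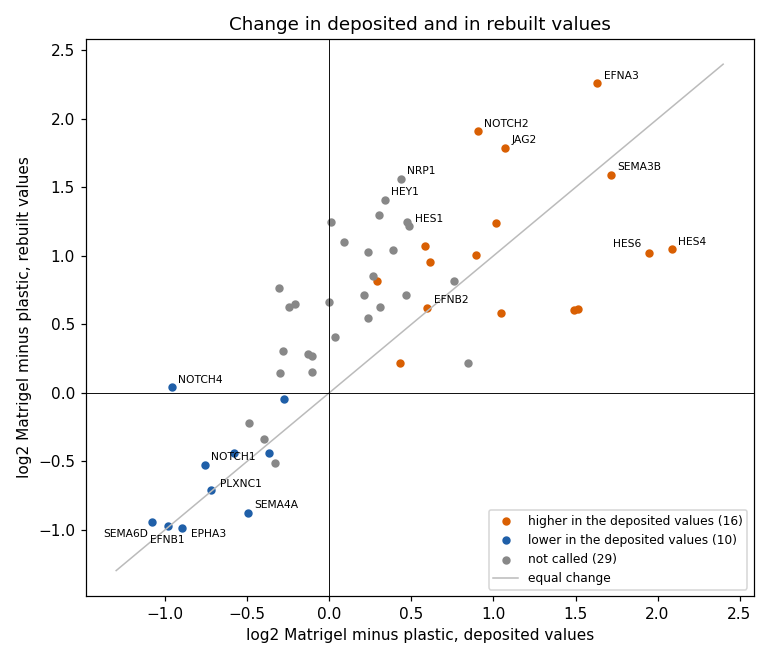
Log2 change, Matrigel minus plastic, in the deposited values (horizontal axis) and in values rebuilt from the raw intensities (vertical axis) of the 55 genes tested in both, in orange for the 16 higher, blue for the 10 lower and gray for the 29 not called in the deposited values. The gray line marks equal change, EFNA3 lies at 1.63 and 2.26, and NOTCH4 lies at -0.96 and 0.039.

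The spread over the 11 arrays was also screened. With any single array left out, 15 of the 60 members with a group mean of at least 5 SD kept a relative SD over 30%, against 20.3% of all such genes. They were HES4, HES6, HEYL, HEY2, NOTCH4 and NOTCH2NLA of the Notch genes, EFNA3 of the ephrins and Eph receptors, and 8 semaphorin and plexin genes. The 8 were SEMA3F, SEMA5B, SEMA6C, SEMA6D, SEMA7A, PLXNA1, PLXNB1 and PLXND1. HEY2, NOTCH2NLA, PLXNA1, SEMA5B, SEMA6C and SEMA7A are the 6 dim genes described above, whose probes were not above the noise of the raw data. They reached 5 SD only through their deposited plastic levels. On Matrigel alone the relative SD was 7.15% for EPHA7, 7.78% for EPHB4 and 8.06% for NRP2, the 3 lowest of the 60, and 33.6% for HES4 and 37.1% for HEYL.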

How the data were processed

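RT4 cells were measured on one-color spotted arrays (Cy3). Raw intensity values were deposited by the authors, together with log10 values that they had made by dividing the distance from the zero point by the SD of the noise, taking log10 and fitting the arrays to each other with a robust regression. These deposited log10 values were the main ones. Values under 3 SD were set to 3 SD, log2 was taken, and limma 3.58.1 in R 4.3.3 (eBayes with a trend, Benjamini-Hochberg over all probes tested) was fitted to probes above 3 SD on at least 2 arrays. The number of arrays limits the precision. Genes with several probes are shown by the probe with the highest mean. In the deposited values, a fold is a lower bound where an array of the lower group is under 3 SD and none of the higher group is. Where both groups have such arrays, as for EPHB3 and PLXNA3, the size and sign of the change can depend on the floor. Other sets of values can give smaller changes. Rebuilt values used the raw intensities, the mode and lower-side SD of the low peak, and a robust regression on the median array, with Python 3.11.15, numpy 2.4.6, scipy 1.17.1, pandas 2.3.3 and statsmodels 0.14.6. The fit was tried on simulated data without the 3 SD floor. It recovered 58% of 50 probes changed 2-fold and 98% of 50 changed 8-fold, with 9 false calls among 21480 probes. Such data cannot show how the fit behaves on values raised to the floor. Gene names were matched by gene identifier to GRCh38.p14, and 58 of 66 members had a RefSeq promoter window.

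Named by rule were up to 10 members in each direction with the largest change and no overlap, members of the off-on class or called at 12 h, a set of receptors and ligands whatever their values, and at most 2 higher and 2 lower genes of the pathway lists. The other members were named after their values were seen. The members and lists were chosen with earlier results of these data known. Alternatives were rebuilt values with and without the regression step, quantile normalization, other floors, filters and probe summaries, array weights, eBayes without trend, and leaving out single arrays. The fits without each of the day 1 to day 9 arrays were chosen after seeing the data. Of the probes, 5249 carried no gene symbol and 172 several, and these were not used.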

Additional observations from a re-analysis of the deposited data

Results flagged for a closer look

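In 57 members with a level above 3 SD on at least 2 of the 9 Matrigel arrays, 14 had a highest or lowest array whose gap to its nearest neighbor exceeded the 95% critical value of Dixon's test. The nominal 5% would give about 2.85, but it holds for independent normal values, and levels raised to the 3 SD floor are not such values. The share over all genes is not given, so the count is not read as an excess. Of the 14, 6 were on the 12 h array, which had the lowest raw median intensity of the Matrigel arrays.

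At 12 h, HES1 was at 6.27 SD and NOTCH2 at 16.3 SD, both low, and SEMA6D was low at 13.2 SD against 18.1 to 22.0 SD on the other arrays. PLXNA4 at 60.6 SD, SEMA3E at 17.8 SD and PLXNA3 at 4.15 SD were high. The raw intensities of these high spots, 545, 183 and 74.9, were within the ranges of the other Matrigel arrays, 445 to 726, 125 to 230 and 48.8 to 86.9. Those of HES1, NOTCH2 and SEMA6D at 12 h were below all other Matrigel arrays. Low single values under 3 SD were those of EFNA1 on day 9, at 2.23e-06 SD with a raw intensity of -576 against 402 to 683 elsewhere, EPHA2 on day 7, at 2.81 SD with a raw intensity of 50.6 against 215 to 527, and HES6 on day 1, at 2.77 SD with a raw intensity of 117 against 135 to 358. EFNB3 on day 3 was low at 3.57 SD, NOTCH3 on day 3 at 16.7 SD, SEMA6A on day 6 at 15.3 SD and PLXNB2 on day 9 at 21.6 SD. EPHB3 was high on day 8 at 4.01 SD. The raw intensities of the NOTCH3, SEMA6A, PLXNB2 and EPHB3 spots were within the ranges of the other Matrigel arrays. That of EFNB3, 143, was below the 172 to 410 elsewhere.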

How the results depend on the processing

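The 2 plastic arrays and their low raw brightness set the limits: a fit without 1 of them rests on a lone plastic array, assumed to vary like the Matrigel arrays, and a level under 3 SD gives only a bound. No paired analysis was possible because only the plastic arrays carry a replicate number in the labels and the Matrigel arrays are single time points. Members higher and lower on Matrigel, 16 and 16, numbered 25 and 9 with rebuilt values, 43 and 0 without the regression step, 8 higher with quantile normalization, and 5 to 7 higher and 5 to 6 lower without a plastic replicate. At 12 h the counts of 1 higher and 2 lower were 3 higher with rebuilt values and with no filter on dim probes, 0 and 12 without the regression step, 0 and 1 with quantile normalization, 2 and 1 without the day 1 array, and 1 lower without the day 2 or day 6 array. No member had a trend over days in any of these fits. The 14 Notch pathway genes called became 23 with rebuilt values, 24 without the regression step, 9 with quantile normalization and 9 without either plastic replicate. The 19 effector genes called became 31 without the regression step and 8 to 11 without a plastic replicate. The 2 off-on members were 0 with rebuilt or quantile-normalized values, 1 without plastic replicate 2 and 4 when the limits were 3 SD and 5 SD, which put 7 members in the on-off class where the main limits put 0. The 15 members of high relative SD were 7 with quantile normalization. The share of all genes called in each of these fits is not given, so these counts are not set against the array as a whole. The median log2 change of all genes tested was 0.52 with rebuilt values, 1.26 without the regression step and 0.036 with quantile normalization. The cause of the shifts in the counts was not tested.

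Changes of sign were as follows, all as log2 changes. With rebuilt values DLL4 was 0.31, EFNA1 0.28, EPHA2 0.64, JAG1 0.66, NOTCH3 0.27, NOTCH4 0.039, NRP2 0.15 and SEMA3F 0.77. Without the regression step, which raised the median of all genes to 1.26, DLL4 was 1.33, EFNA1 1.32, EFNB1 0.090, EPHA2 1.61, EPHA3 0.058, EPHB4 0.99, JAG1 1.64, NOTCH1 0.53, NOTCH3 1.32, NOTCH4 0.10, NRP2 1.20, SEMA3F 0.91, SEMA4D 0.60, SEMA6D 0.11, RBPJ 0.092 and SPEN 0.52. With quantile normalization EFNA1 was 0.053, EFNB2 -0.028 and HES1 -0.057. The mean of both probes gave NOTCH1 0.69. Leaving out 1 plastic replicate or the other put SEMA3F between -0.61 and 0.0019, JAG1 between -0.00999 and 0.0039 and PLXNB1 between -0.15 and 1.67. Without the day 3, 4 or 8 array JAG1 was 0.011, 0.018 and 0.026, without day 7 EPHA2 was 0.12 and without day 9 EFNA1 was 0.27. Leaving out single Matrigel arrays also moved HEY1 (0.40 without day 1, adjusted p = 0.048, limma) and NRP1 (0.55 without day 3, adjusted p = 0.038, limma) past the threshold, and NOTCH4 above it without day 1, 3, 4, 6 or 7 (adjusted p between 0.0506 and 0.0533, limma). Of 1038 values of named genes under alternatives, 925 kept their direction and side of the threshold, 63 lost and 14 gained a call without changing direction, and 36 changed sign.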
